A study of Mus musculus with 12 samples.

Results

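Hemoglobin carries oxygen in red cells and is built from alpha and beta globin chains in equal number, each chain holding a heme group. In the adult mouse the alpha chains come from Hba-a1 and Hba-a2 and the beta chains from Hbb-bs and Hbb-bt. Globin transcripts are made in erythroid precursors of the bone marrow, where they become the most abundant messages as the cells mature, and they are not a marker of hematopoietic stem cells (HSCs). Ahsp, the chaperone that holds free alpha chains until a beta chain binds, was listed with them. The members were taken by gene name from tables that hold 31272 names. Each of the 4 globin genes had 1 row in all 12 libraries. Ahsp was not analysed here.

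RNA was sequenced from bone marrow cells that had been sorted as HSCs out of wild-type C57BL/6 mice. The 12 libraries form 4 groups of 3, namely an unirradiated control group (Ctrl) and 3 irradiated groups labelled IR, Ab_IR and L_IR. Irradiated mice received a sublethal dose to the whole body and their cells were taken 3 days later. What Ab and L stand for is not stated in the labels, nor is the age of the mice, and the group names are used as given. The labels also do not say that replicates came from separate mice, so p-values measure the spread between these samples only, which may be technical. The sort kept Sca-1+ c-Kit+ Flt3- CD34- cells and discarded cells stained by lineage antibodies, among them Ter-119, which binds cells of the erythroid lineage.

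The tables give FPKM, a measure of fragments corrected for transcript length and library size. They hold no read counts, so the depth behind a value is unknown and counting intervals are left out. Summed over all rows, a library held 344338 to 405123 FPKM. Ctrl replicate 1 stood apart, with 44.1% of its rows at 0, where the other 11 libraries had 24.7% to 27.3%. Nppa, a heart hormone gene, was at 51.2 to 63.9 FPKM in 5 libraries (Ctrl replicates 2 and 3 and all IR) and at 0 to 0.26 FPKM in the other 7. This split coincides with the groups when IR is compared with Ab_IR or L_IR, so there the split and the group cannot be told apart. Genes of the sort's positive markers were present, with means of 35.1 FPKM in Ctrl, against 58.6 for IR, 38.1 for Ab_IR and 45.6 for L_IR, for Ly6a (Sca-1). Kit (c-Kit) had means of 23.5 FPKM in Ctrl, against 6.87 for IR, 18.2 for Ab_IR and 17.9 for L_IR. Of 15 listed HSC markers, 8 passed the filter on low values in IR and Ctrl, and Procr, which encodes the endothelial protein C receptor, was at 0.3 to 1.26 FPKM. Cd34, whose protein the sort selected against, was at 18.99 to 20.65 FPKM in Ctrl, Flt3, also selected against, was at 9.13 to 12.1 FPKM there, and the neutrophil granule gene Mpo was at 2859 to 3432 FPKM over all libraries of all groups.

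The globin genes lie in 2 clusters. On GRCm38 with the GENCODE M21 annotation, Hba-a1 (ENSMUSG00000069919.7) spans chr11:32283511-32284465 and Hba-a2 (ENSMUSG00000069917.7) spans chr11:32296489-32297298, both on the plus strand, with starts 12978 bases apart. Hbb-bs (ENSMUSG00000052305.6) spans chr7:103826534-103828096 and Hbb-bt (ENSMUSG00000073940.3) spans chr7:103812524-103813996, both on the minus strand, with starts 14100 bases apart. Each gene is protein coding with 3 exons. The copies of a pair differ little within the coding sequence and more outside it. The coding sequences of Hba-a1 and Hba-a2 differ at 1 of 426 bases, and those of Hbb-bs and Hbb-bt at 1 of 441 bases, stop codons left out. The difference is C381T between the alpha copies and C417T between the beta copies, with the first gene of each pair given first and bases counted from 1 at the start codon. Aligned over the whole annotated transcripts, the alpha copies were 75.1% identical, with 1 mismatch and 177 gap columns, and the beta copies 82.4%, with 45 mismatches and 79 gap columns. An alpha and a beta coding sequence, Hba-a1 and Hbb-bs, were 57.5% identical. The 41 coding bases around each difference are shown because they are where reads inside the coding sequence can tell the copies apart, and the capital marks the differing base.
Hba-a1: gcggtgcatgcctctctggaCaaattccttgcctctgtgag
Hba-a2: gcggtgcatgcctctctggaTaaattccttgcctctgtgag
Hbb-bs: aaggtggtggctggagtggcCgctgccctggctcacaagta
Hbb-bt: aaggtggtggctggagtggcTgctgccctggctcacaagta

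Reads within identical stretches can be assigned to either copy. Values of a single copy are therefore uncertain, and sums over a pair are given beside them. Annotated lengths enter FPKM too: the merged exons of Hba-a1 hold 812 bases and those of Hba-a2 hold 667 in GENCODE M21, and the annotation behind the tables is not given in the sources used here.

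The 4 genes changed together across the libraries, and the letters before their starts are given to show what the windows share. RefSeq windows of 250 bases before the start were found for 4 of 4 genes on GRCm38.p6. The windows of Hba-a1 and Hba-a2 share an identical run of 247 bases, whereas those of Hbb-bs and Hbb-bt are 69.3% identical. GENCODE places the gene starts 3 to 168 bases further upstream than RefSeq, and only the stretch before the GENCODE gene is shown, for an alpha and a beta copy. Capitals mark letters searched on both strands, namely GATAA (the core bound by GATA factors), CACCC (the box bound by KLF factors), CCAAT and TATAA, where they lie wholly within the stretch. A motif on the opposite strand appears as its reverse complement, so that ATTGG stands for CCAAT and TTATA for TATAA. The alpha stretch lies at chr11:32296242-32296488 on the plus strand and the beta stretch at chr7:103813997-103814173 on the minus strand, each written 5′ to 3′ along its gene.
Hba-a2: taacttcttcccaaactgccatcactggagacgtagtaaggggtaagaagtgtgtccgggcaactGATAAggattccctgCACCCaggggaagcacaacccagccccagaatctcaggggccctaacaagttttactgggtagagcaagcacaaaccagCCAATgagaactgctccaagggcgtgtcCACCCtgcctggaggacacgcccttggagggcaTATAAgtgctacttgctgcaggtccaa
Hbb-bt: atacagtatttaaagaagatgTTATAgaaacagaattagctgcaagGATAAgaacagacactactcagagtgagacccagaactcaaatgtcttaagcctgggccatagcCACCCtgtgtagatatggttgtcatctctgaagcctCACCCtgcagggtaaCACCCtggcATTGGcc

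All 4 motifs were found in the full window of each of the 4 genes. GATAA occurs once in each, at 182 bases before the RefSeq start in Hba-a1, 185 in Hba-a2, 209 in Hbb-bs and 204 in Hbb-bt. CACCC was found at 2 places in each alpha window, at 1 in Hbb-bs and at 3 in Hbb-bt. TATAA on the gene's strand begins 27 to 30 bases before the RefSeq start in all of them. Of 32851 RefSeq windows of the same length, 22.6% hold GATAA, 52.0% CACCC, 33.9% CCAAT and 22.8% TATAA, and 318 (0.968%) hold all 4. Hbb-bt holds a second TATAA on the opposite strand, 229 bases before the start, written TTATA above. These matches describe letters only.

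Globin transcripts were high in Ctrl. Hba-a1 was listed at 894, 1133 and 1136 FPKM in the 3 Ctrl libraries, which ranked it between 28 and 39 among all gene rows. Hba-a2 stood at 563, 638 and 613 FPKM, Hbb-bs at 702, 946 and 878 FPKM and Hbb-bt at 596, 649 and 597 FPKM, in replicate order. Ctrl replicate 1 was the lowest Ctrl library for all 4 genes. The 4 genes together summed to 3115 ± 320 FPKM (SD, n = 3), or 0.860% of the FPKM sum.

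In IR all 4 globin transcripts were low. Hba-a1 was listed at 175, 174 and 176 FPKM, Hba-a2 at 89.7, 91.1 and 93.7 FPKM, Hbb-bs at 130, 126 and 122 FPKM and Hbb-bt at 103, 99.3 and 98.6 FPKM. No IR library came near a Ctrl library for any of these genes. Hba-a1 ranked 310 to 313 among the rows in IR. The sum fell to 492 ± 4.11 FPKM, which is 15.8% of the Ctrl mean and 0.132% of the FPKM sum. The IR libraries were close to each other, with a coefficient of variation of the sum of 0.835% against 10.3% in Ctrl.

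Ab_IR libraries carried globin transcripts at several times the IR level. Hba-a1 was listed at 1147, 1155 and 1077 FPKM and Hba-a2 at 583, 579 and 636 FPKM. Hbb-bs stood at 817, 835 and 745 FPKM and Hbb-bt at 517, 518 and 490 FPKM. The Ab_IR range lay inside the Ctrl range for Hba-a2 and Hbb-bs. Hba-a1 reached above the highest Ctrl library in 2 Ab_IR libraries, and Hbb-bt was below the lowest Ctrl library in all 3. The sum was 3033 ± 74.3 FPKM, or 97.4% of the Ctrl mean. It made up 0.764% of the FPKM sum, and its range of 0.728% to 0.785% lay below the Ctrl range of 0.800% to 0.903%.

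L_IR lay between IR and the other groups. Hba-a1 was listed at 514, 486 and 496 FPKM, Hba-a2 at 284, 288 and 269.5 FPKM, Hbb-bs at 396, 393 and 389 FPKM and Hbb-bt at 281, 263 and 270.2 FPKM. All 3 L_IR libraries were above every IR library and below every Ctrl and Ab_IR library for each gene. The sum was 1444 ± 28.1 FPKM, or 46.4% of the Ctrl mean and 0.363% of the FPKM sum. The order of the summed FPKM was thus Ctrl and Ab_IR, whose ranges of 2755 to 3366 and 2948 to 3087 FPKM overlap, then L_IR, then IR. As shares of the FPKM sum, the ranges of Ctrl and Ab_IR did not overlap, and Ctrl was the higher. In bulk libraries fewer cells of a type and less RNA per cell cannot be told apart.

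**Figure D1:**
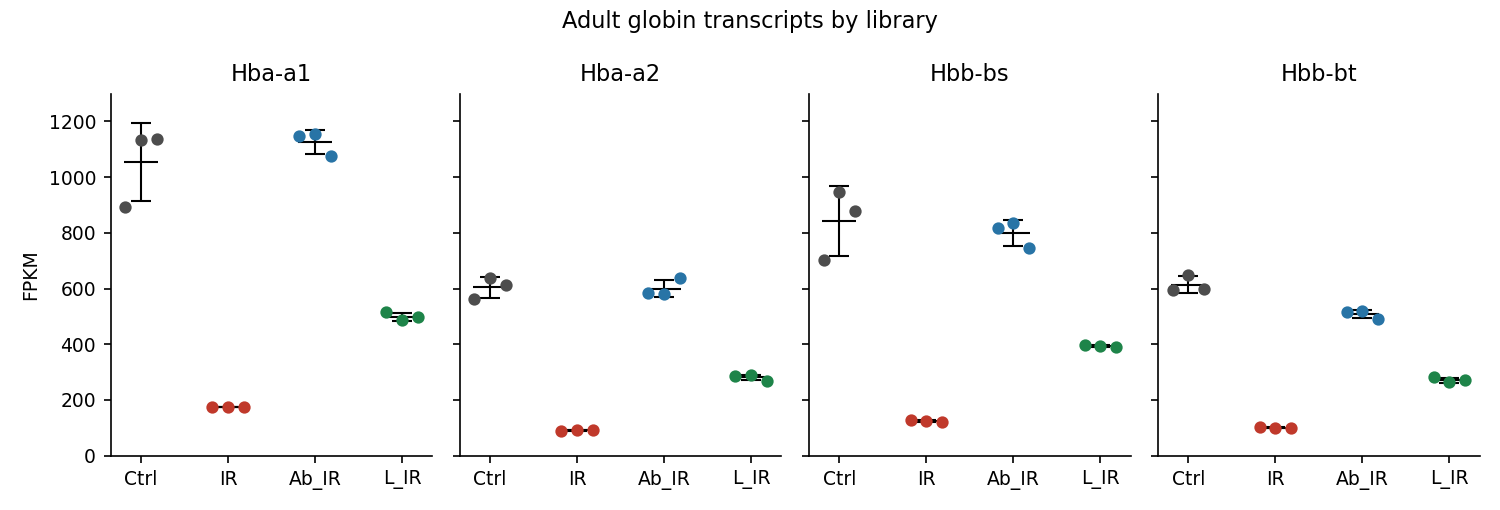
FPKM of the 4 adult globin genes in each library of the 4 groups. Points are libraries and the bars give the mean and SD of 3. IR libraries sit lowest in every panel, L_IR libraries come next, and Ctrl and Ab_IR libraries are the highest, with Ctrl replicate 1 (the leftmost Ctrl point) the lowest of its group.

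How irradiation changed transcripts of the sorted cells is the question of IR against Ctrl. A call needed an adjusted p (limma, Benjamini-Hochberg over all genes tested) under 0.05 and a log2 fold change beyond 1 in either direction, on the scale of log2(FPKM + 1). All 4 globin genes passed the filter on low values in every comparison. All 4 were called lower in IR, where 4.57% of the 12072 genes tested were called lower and 3.03% higher. Hbb-bs had -2.72 on the log2 scale (SE 0.119, adjusted p 2.92e-05) and Hba-a2 of -2.71 (SE 0.0714, adjusted p 5.26e-06). Hbb-bt followed with -2.60 (SE 0.0664, adjusted p 5.26e-06) and Hba-a1 with -2.58 (SE 0.109, adjusted p 2.70e-05). The median over all genes tested was -0.05. Without Ctrl replicate 1, where only libraries that carry Nppa remain, all 4 were still called lower and their median was -2.73.

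Ab_IR and L_IR were each compared with IR, and these comparisons share the IR libraries. In Ab_IR all 4 globin genes were called higher than in IR, beside 5.11% of the 12067 genes tested called higher and 2.46% called lower. The log2 fold changes were 2.68 for Hba-a1 (SE 0.0378, adjusted p 1.89e-08), 2.70 for Hba-a2 (adjusted p 3.31e-08), 2.66 for Hbb-bs (adjusted p 5.12e-08) and 2.33 for Hbb-bt (adjusted p 2.92e-08). Hbb-bt thus had the smallest value of the 4. In L_IR all 4 were called higher as well, beside 4.09% of the 12163 genes tested called higher and 2.13% called lower. There the values were 1.51 for Hba-a1 (SE 0.0266, adjusted p 5.80e-08), 1.61 for Hba-a2 (adjusted p 1.03e-07), 1.64 for Hbb-bs (adjusted p 4.61e-08) and 1.43 for Hbb-bt (adjusted p 1.38e-07).

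Ab_IR and L_IR were also compared directly. Few genes passed both thresholds, with 0.295% of 12194 genes called higher in Ab_IR and 0.238% called lower, and 3 of the 4 globin genes were among those called higher. Hba-a1 differed by 1.17 on the log2 scale (SE 0.0435, adjusted p 1.36e-05), Hba-a2 by 1.09 (adjusted p 2.14e-05) and Hbb-bs by 1.02 (adjusted p 2.23e-05). Hbb-bt, with 0.90 (adjusted p 2.14e-05), passed the p threshold and stayed under the threshold of size. Hbb-bs was close to that threshold and had 0.99 without Ab_IR replicate 2 and 0.95 with quantile normalization, which leaves 2 of the 4 genes called in either case.

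Against Ctrl, none of the 4 globin genes was called in Ab_IR by limma, where 0.692% of 12134 genes were called higher and 0.231% lower. Hba-a1 differed by 0.10 (SE 0.123, adjusted p 0.619), Hba-a2 by -0.01 (SE 0.0916, adjusted p 0.946) and Hbb-bs by -0.07 (SE 0.133, adjusted p 0.775). Hbb-bt differed by -0.27 (SE 0.0828, adjusted p 0.163), and it was the only one of the 4 with an unadjusted p under 0.05 (0.0147), which 20.9% of all genes tested had. The signs for Hba-a1, Hba-a2 and Hbb-bs turned under other settings, so they carry no direction. With the Nppa split as a term in a fit of all 12 libraries, Hba-a1 had 0.33 (adjusted p 3.26e-04) and Hbb-bt had -0.23 (adjusted p 0.00767), both under the threshold of size. In a fit of all 12 libraries without that term Hbb-bt had -0.27 (adjusted p 0.00772). A p that misses the threshold does not show that the levels were equal.

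In L_IR all 4 were called lower than in Ctrl, beside 0.62% of 12251 genes called lower and 2.03% called higher. The log2 fold changes were -1.07 for Hba-a1 (SE 0.115, adjusted p 0.00275), -1.10 for Hba-a2 (SE 0.0789, adjusted p 4.82e-04), -1.09 for Hbb-bs (SE 0.121, adjusted p 0.00332) and -1.17 for Hbb-bt (SE 0.0735, adjusted p 2.97e-04). These values lie just past the threshold of size. With Ctrl replicate 1, the Ctrl library without Nppa, as the sole control, Hba-a1 had -0.84 and Hbb-bs had -0.84, and 2 of the 4 genes were called. That fit has a single control library, which is assumed to vary like the L_IR libraries.

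**Figure D2:**
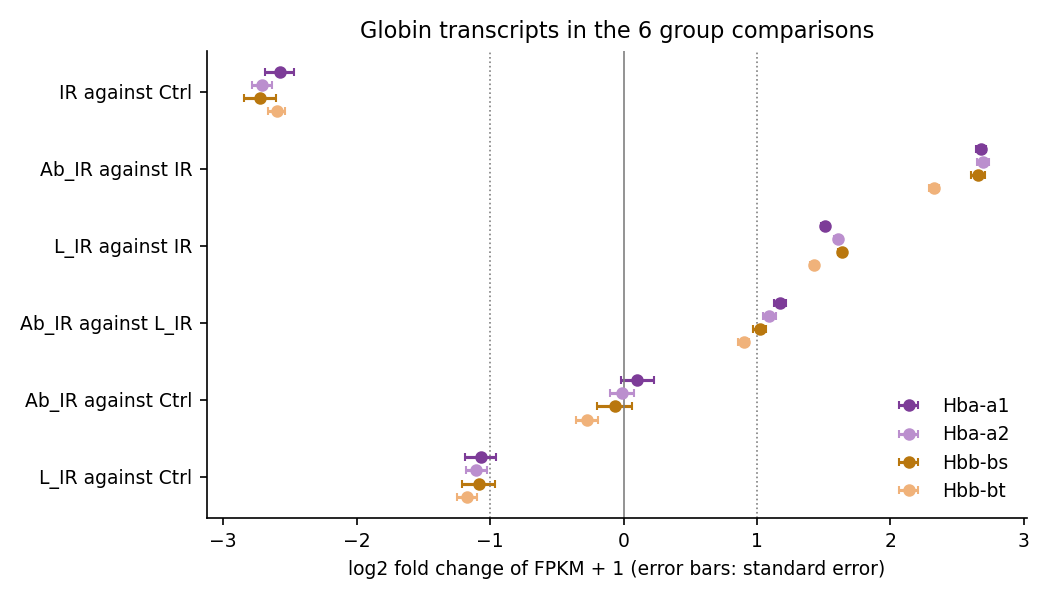
Log2 fold changes of FPKM + 1 of the 4 globin genes in the 6 comparisons, with standard errors from limma. Dotted lines mark the threshold of 1 in each direction. All 4 genes lie near -2.6 to -2.7 for IR against Ctrl, near 0 for Ab_IR against Ctrl and just past -1 for L_IR against Ctrl, and Hbb-bt is the lowest of the 4 in the comparisons of Ab_IR.

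The alpha to beta ratio was taken within each library as the sum of Hba-a1 and Hba-a2 over the sum of Hbb-bs and Hbb-bt, so library scaling cancels. It compares transcripts per length, not chains. The ratio was 1.12, 1.11 and 1.19 in Ctrl, 1.14, 1.18 and 1.22 in IR, and 1.18, 1.18 and 1.16 in L_IR. In Ab_IR it was 1.30, 1.28 and 1.39, and all 3 libraries were above the other 9. The group means were 1.14 ± 0.0408, 1.18 ± 0.0426, 1.17 ± 0.0103 and 1.32 ± 0.0560 for Ctrl, IR, L_IR and Ab_IR (SD, n = 3). Across the 4 groups the ratio differed by an exact permutation test of the F statistic over 369600 assignments of the 12 libraries (p = 0.00753). The mean ratio of Ab_IR was 12.1% above IR, 12.6% above L_IR and 15.9% above Ctrl. In each of these pairs the two-sided exact permutation p was 0.1, the smallest that 3 against 3 allows, and 0.2 after adjustment over 6 pairs. The other pairs overlapped, with IR 3.41% above Ctrl (exact p = 0.3), L_IR 2.98% above Ctrl (exact p = 0.4) and L_IR 0.42% below IR (exact p = 0.9). The sum of all 4 transcripts differed 6.33-fold between Ctrl and IR. The differences of the ratio depended on the copies used. On the log2 scale Ab_IR against IR had 0.16 from the sums, 0.02 from Hba-a1 over Hbb-bs and 0.37 from Hba-a2 over Hbb-bt. For IR against Ctrl these values were 0.05, 0.15 and -0.11, whereas Ab_IR stayed above L_IR by 0.15 to 0.19 and above Ctrl by 0.17 to 0.26.

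Ratios within each pair of copies were added after the values had been seen, and the uncertainty of shared reads applies to them. Hbb-bs over Hbb-bt was 1.18, 1.46 and 1.47 in Ctrl, 1.26, 1.27 and 1.24 in IR, 1.58, 1.61 and 1.52 in Ab_IR and 1.41, 1.49 and 1.44 in L_IR. Across the 4 groups its exact permutation p was 0.0288, and 0.0432 adjusted over the 3 ratios. Ctrl replicate 1 lay apart from the other Ctrl libraries and beside IR. Hba-a1 over Hba-a2 was 1.74 ± 0.136 in Ctrl against 1.91 ± 0.0356 in IR, 1.88 ± 0.166 in Ab_IR and 1.78 ± 0.0821 in L_IR, with an exact permutation p of 0.298 across the groups. The p of the alpha to beta ratio adjusted over the same 3 ratios was 0.0226.

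**Figure D3:**
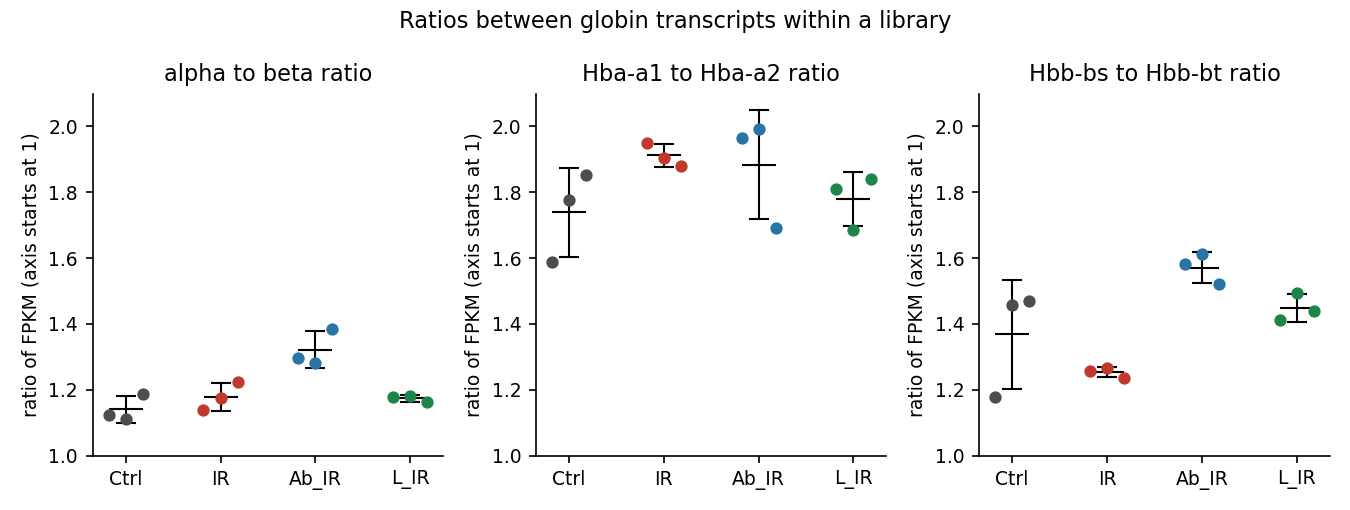
Ratios of FPKM within a library, with points for libraries and bars for the mean and SD of 3. The axes start at 1. In the left panel the 3 Ab_IR libraries, at 1.28 to 1.39, lie above the other 9, which reach 1.22, and in the right panel Ctrl replicate 1 (leftmost point, 1.18) lies below the other Ctrl libraries.

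The 4 genes resembled each other over the 12 libraries, with Pearson's r of 0.990 to 0.997 between pairs on the log2 scale. These values describe libraries that fall into 4 groups and share the scaling to library size. In all, 5035 genes averaged 10 FPKM or more, the 4 globin genes included. Of the others, the 5 whose pattern was most like the summed globin level were Ear1 (r = 0.997), Alas2 (0.995), Siglecf, Zfp36 and Prg3 (0.993 each). Alas2, the erythroid form of the enzyme that begins heme synthesis, had 26.8 ± 1.36 FPKM in Ctrl against 3.30 ± 0.266 in IR, 22.1 ± 0.354 in Ab_IR and 11.1 ± 0.400 in L_IR. Ear1, an eosinophil-associated ribonuclease gene, had 527 ± 82.3, 32.2 ± 0.790, 560 ± 28.3 and 205 ± 6.48 FPKM in the same order, and it belongs to a family whose copies can share reads. Prg3, an eosinophil granule protein gene, stood at 7.47% of the Ctrl mean in IR, 121% in Ab_IR and 45.6% in L_IR. Siglecf, a sialic acid-binding receptor of eosinophils, stood at 30.8%, 96.8% and 68.7%, and Zfp36, which encodes an RNA-binding protein that promotes mRNA decay, at 49.1%, 103% and 75.8%. These 5 genes were chosen for their likeness and do not show how other genes of their cell types behaved.

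The other globin genes were low. Of 11 listed embryonic and minor globins, 9 had a row. Hba-x, Hbb-y, Hbb-bh1, Hbb-bh2 and Hbq1a, which lie in the same clusters and are embryonic or minor globins, did not exceed 0.33 FPKM in any library. Hbq1b, the theta globin gene between the alpha copies, had 2.84 ± 0.300 FPKM in Ctrl against 0.450 ± 0.106 in IR, 1.86 ± 0.427 in Ab_IR and 1.04 ± 0.147 in L_IR. No IR library reached 1 FPKM, so it passed the filter on low values in that comparison only through Ctrl, where it is high, and it did not pass without Ctrl replicate 1. Its levels are therefore given with no test. Mb, which encodes the oxygen store of muscle and no part of hemoglobin, went another way. It was listed at 0, 13.8 and 15.9 FPKM in the Ctrl libraries in replicate order and at 12.2 to 17.3 FPKM in IR. In Ab_IR it averaged 0.01 FPKM, and in L_IR it was listed at 0 in all 3 libraries. Mb was thus present in the 5 libraries that carry Nppa, and its calls against IR cannot be told apart from that split. Within Ctrl, the globin sum was 2755 FPKM in replicate 1, which lacks Nppa, and 3366 and 3224 FPKM in replicates 2 and 3, which carry it.

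**Figure D4:**
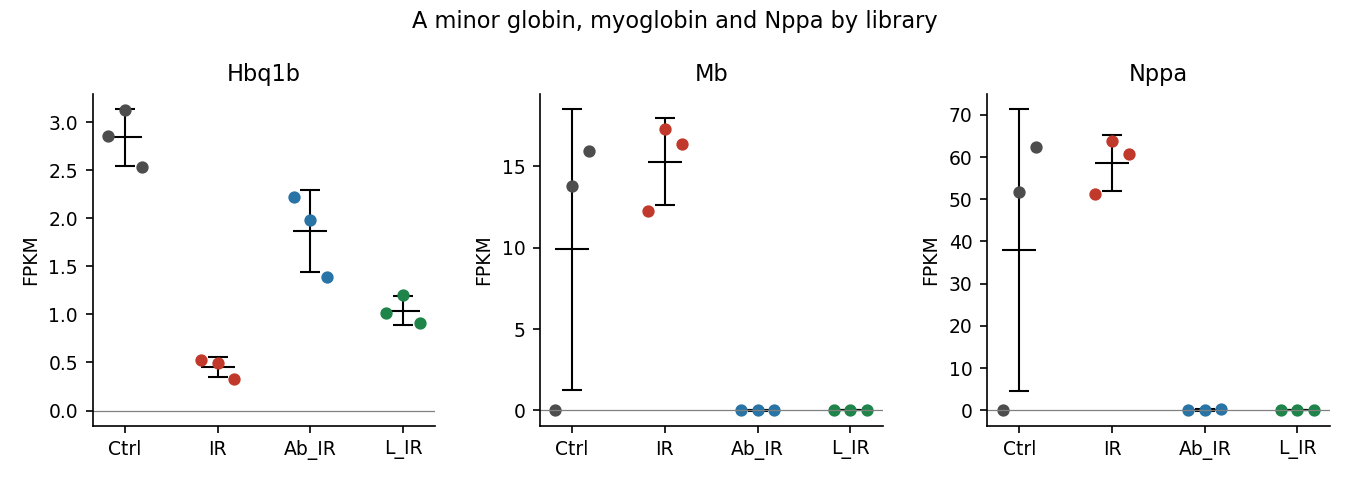
FPKM of Hbq1b, Mb and Nppa in each library, with points for libraries and bars for the mean and SD of 3. Hbq1b has its highest values in Ctrl and its lowest in IR, whereas Mb and Nppa are present in Ctrl replicates 2 and 3 and in IR and at or near 0 in the other 7 libraries.

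The genes beside the clusters are given as a description, with no test of them as a group. Within 100000 bases of the alpha genes lie 10 other genes with a row, of which 4 stayed under 1 FPKM in all libraries. Nprl3, a regulator of nutrient signalling whose introns hold the alpha globin enhancers, had 3.42 ± 0.395 FPKM in Ctrl against 1.91 ± 0.267 in IR, 3.39 ± 0.241 in Ab_IR and 3.14 ± 0.0961 in L_IR. Snrnp25, a spliceosome component, had 21.5 ± 8.75, 20.2 ± 1.77, 28.6 ± 1.21 and 25.7 ± 0.433 FPKM. Mpg, a DNA repair glycosylase gene, had 2.71 ± 0.506, 2.04 ± 0.0520, 3.36 ± 0.0361 and 2.70 ± 0.359 FPKM, and Sh3pxd2b, an adaptor protein gene, had 1.35 ± 0.243, 0.783 ± 0.0404, 1.41 ± 0.0889 and 1.93 ± 0.0764 FPKM. The lowest mean was that of IR for Hbq1b, described above, for Rhbdf1 and for each of these 4 genes, although the Snrnp25 means of IR and Ctrl differed by less than the spread of Ctrl. Around the beta genes 6 of 7 other genes, olfactory receptors and embryonic globins, stayed under 1 FPKM.

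Heme, the cofactor of the globin chains, is made by a short chain of enzymes. All 13 listed heme synthesis genes passed the filter in IR and Ctrl, and 11 of them were called lower in IR with a list median of -1.31 (10 of 12 without Ctrl replicate 1). Alad, which makes porphobilinogen, fell from 70.8 ± 4.83 to 15.2 ± 0.925 FPKM (log2 fold change -2.15, adjusted p 1.58e-05), and Urod, the uroporphyrinogen decarboxylase, from 40.0 ± 7.53 to 14.9 ± 0.819 FPKM (-1.35, adjusted p 6.83e-04). Alas1, the form of the first enzyme found in all tissues, was not called, with 66.8 ± 2.06 FPKM in Ctrl and 76.97 ± 1.10 in IR (0.20, adjusted p 0.0279). Against IR, 10 of the 13 were called higher in Ab_IR and 4 in L_IR. Between Ab_IR and L_IR limma called none, with a list median of 0.40, although 13 of 13 had an unadjusted p under 0.05, as did 48.1% of all genes tested in that comparison, and Alas2 had 0.94 (adjusted p 1.98e-05). Against Ctrl none was called in Ab_IR, with 3 at an unadjusted p under 0.05 beside 20.9% of all genes tested. In L_IR 1, Alas2, was called lower than in Ctrl (-1.20, adjusted p 1.75e-04), beside 0.62% of all genes tested. There 11 of the 13 had an unadjusted p under 0.05 by limma, beside 24.7% of all genes tested, with a list median of -0.47.

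Transcription factors and cofactors that act on globin genes formed a list of 18, of which 8 were called lower in IR than in Ctrl with a list median of -0.69 (6 of 17 without Ctrl replicate 1). Klf1, the erythroid factor that binds CACCC boxes of the beta genes, fell from 65.2 ± 13.5 to 13.7 ± 0.560 FPKM (log2 fold change -2.15, adjusted p 1.56e-04). Lmo2, a bridging protein of the erythroid complex, was not called, with 77.0 ± 4.72 and 68.7 ± 0.691 FPKM (-0.16, adjusted p 0.0933). Lyl1, a related helix-loop-helix factor of early blood cells, had 61.99 ± 3.87 and 65.9 ± 0.335 FPKM (0.09, adjusted p 0.309), and Myb, a factor of progenitors, had 59.8 ± 7.85 and 40.6 ± 0.565 FPKM (-0.54, adjusted p 0.00562). Of this list 6 were called higher in Ab_IR than in IR and 6 in L_IR than in IR, among them Klf1 with 2.31 (adjusted p 1.10e-07) and 1.89 (adjusted p 2.65e-07). Between Ab_IR and L_IR limma called none of the 18, with 11 at an unadjusted p under 0.05 beside 48.1% of all genes tested. None was called against Ctrl either, with 3 at that p in Ab_IR, beside 20.9% of all genes, and 10 in L_IR, beside 24.7%. Gata1, the main erythroid GATA factor, was added after its values were seen. Its level was 37.8 ± 1.02 FPKM in Ctrl against 6.41 ± 0.556 in IR, 40.7 ± 1.32 in Ab_IR and 25.5 ± 0.540 in L_IR.

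Membrane and cytosol genes of red cells were mostly lower in IR as well. Of 30 listed genes, 23 were called lower in IR than in Ctrl with a list median of -2.16, and 22 of the 27 that passed the filter were called lower without Ctrl replicate 1. Car1, a carbonic anhydrase of red cells, fell from 545 ± 52.3 to 36.7 ± 0.902 FPKM (log2 fold change -3.85, adjusted p 5.11e-06) and Car2 from 393 ± 15.4 to 65.2 ± 2.37 FPKM (-2.57, adjusted p 5.26e-06). The water channel gene Aqp1 fell from 180.1 ± 19.0 to 16.3 ± 0.227 FPKM (-3.38, adjusted p 5.26e-06) and the peroxidase gene Prdx2 from 119.7 ± 28.0 to 40.1 ± 0.471 FPKM (-1.53, adjusted p 9.32e-04). Both Ab_IR and L_IR had 24 of the 30 called higher than IR. Between Ab_IR and L_IR 1 of 30 was called, Car1, with 370 ± 16.4 and 156 ± 3.48 FPKM (1.24, adjusted p 1.13e-05), while 28 of the 30 had an unadjusted p under 0.05, beside 48.1% of all genes tested, and the list median was 0.40. Car1 was also the 1 gene of this list called lower in L_IR than in Ctrl (-1.79, adjusted p 1.15e-04), where 2 genes were called without Ctrl replicate 1. There 22 of the 30 had an unadjusted p under 0.05, beside 24.7% of all genes tested, with a list median of -0.52. In Ab_IR against Ctrl limma called none, with 11 at an unadjusted p under 0.05 beside 20.9% of all genes tested.

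Set beside each other as shares of the Ctrl mean, the globins were the lowest of the 4 sets in L_IR. In IR the globin sum stood at 15.8%, the median red cell gene at 17.1%, the median heme synthesis gene at 38.5% and the median regulator at 61.2%. In Ab_IR the values were 97.4%, 88.5%, 95.7% and 102%. In L_IR the globin sum stood at 46.4%, whereas the median red cell gene stood at 68.1%, the median heme synthesis gene at 71.4% and the median regulator at 84.4%. The summed red cell list itself was at 56.6% of Ctrl in L_IR, and the globin sum over that list sum was 1.37 to 1.71 in Ctrl against 1.54 to 1.57 in IR, 1.78 to 1.81 in Ab_IR and 1.27 to 1.31 in L_IR. These shares are a description, and their differences between lists were not tested.

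**Figure D5:**
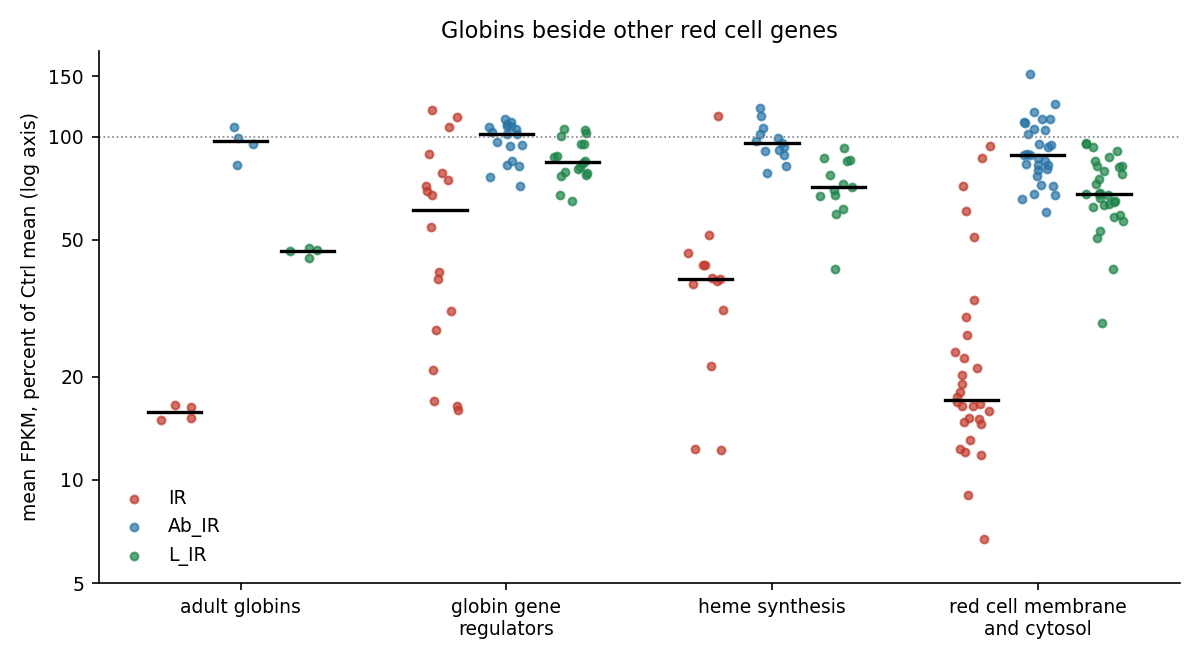
Mean FPKM of each gene as a percent of its Ctrl mean (log axis) in IR, Ab_IR and L_IR, for the adult globins and 3 lists of red cell genes, leaving out genes that averaged under 1 FPKM. Points are genes and black lines are medians. In L_IR the 4 globins lie near 46.4%, below the median of each list, while in Ab_IR all 4 sets of genes lie around 100% (dotted line).

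Markers of other cell types moved with the same groups, and their part in the globin differences was not tested. The summed red cell list had 1940 to 2010 FPKM in Ctrl against 312 to 318 in IR, 1630 to 1720 in Ab_IR and 1106 to 1123 in L_IR. Of the megakaryocyte and platelet list, 8 of the 9 genes that passed the filter were called lower in IR than in Ctrl and 9 of 10 higher in Ab_IR than in IR, while without Ctrl replicate 1 only 4 passed the filter in the former comparison and 4 were called lower. Its sum was 69.0 to 80.4 FPKM in Ctrl against 13.9 to 16.5 in IR, 162 to 165 in Ab_IR and 98.2 to 106 in L_IR, so Ab_IR and L_IR were above Ctrl there. Of 13 neutrophil and monocyte genes, 4 were called higher and 2 lower in IR than in Ctrl, and 7 were called higher in Ab_IR than in L_IR. That list summed to 11191 to 13042 FPKM in Ctrl against 17253 to 17543 in IR, 12203 to 12794 in Ab_IR and 8951 to 9165 in L_IR. The B and plasma cell list, led by the kappa light chain gene Igkc, summed to 10182 to 13396 FPKM in Ctrl against 17754 to 19000 in IR, 18073 to 18713 in Ab_IR and 25861 to 26739 in L_IR. Macrophages of erythroblastic islands, which hold maturing red cells, were marked by 13 genes that summed to 108 to 112 FPKM in Ctrl against 88.2 to 98.7 in IR, 127 to 140 in Ab_IR and 124 to 146 in L_IR. Of the 11 that passed the filter in IR and Ctrl, 2 were called lower and 1 higher in IR. The HSC markers summed to 98.2 to 105 FPKM in Ctrl against 71.6 to 78.4 in IR, 88.8 to 97.1 in Ab_IR and 95.6 to 96.9 in L_IR, and 4 of 8 tested were called lower in IR. This list holds Cd34 and Flt3, whose proteins the sort selected against, and both were among the 4. Without them, a choice made after seeing the data, the sum was 67.2 to 74.3 FPKM in Ctrl against 66.8 to 73.8 in IR, 64.4 to 71.4 in Ab_IR and 74.2 to 74.8 in L_IR, so Ctrl and IR overlapped.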

How the data were processed

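The deposited files are 12 tables of gene names and values with 2 decimals, 1 table per library. Per the labels, stranded mRNA libraries were made from RNA of sorted cells, and the submitters' processing notes name fastp, HISAT2, StringTie and GRCm38 (mm10). The study's methods state that the authors quantified genes with RSEM and tested them with DESeq2, so which tool gave the deposited values is open. The values were read as FPKM as the authors made them, since they multiply with gene length in kb to sums of 913577 to 945263 over the 96.7% of names that matched a single GENCODE M21 gene. FPKM are not counts, so no count test was run.

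Each comparison was fitted with limma 3.58.1 in R 4.3.3 (eBayes, trend on) on log2(FPKM + 1), using only its 2 groups and the genes that reached 1 FPKM in 3 or more of those libraries. Fold changes on this scale understate the change of low genes. Calls need a Benjamini-Hochberg adjusted p under 0.05 over all genes tested and an absolute log2 fold change above 1. Ratios were tested by exact permutation of libraries with NumPy 2.4.6. The scripts were tested on simulated data. Promoter windows are RefSeq's. The members and lists were chosen with earlier results of these data known. Named genes of a list are its 4 highest by mean FPKM, beside the 5 genes most like the globin sum, and some listed genes are not reported here by name. Procr, Gata1 and the genes beside the clusters were added after their values were seen. Alternatives were other pseudocounts, filters, scalings and variance models, a fit of all libraries, a block for the replicate number and the omission of single libraries. A term for the Nppa split, Ctrl replicate 1 as the sole control, list counts without that library and the HSC list without Cd34 and Flt3 were added after seeing the data.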

Additional observations from a re-analysis of the deposited data

How the results depend on the processing

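Of the globin genes, 4 were called in IR against Ctrl, in L_IR against Ctrl and in both other comparisons with IR, 3 in Ab_IR against L_IR and 0 in Ab_IR against Ctrl. For L_IR against Ctrl the count was 2 with the Nppa split as a term and 2 with Ctrl replicate 1 as the only control. Without single libraries the counts ranged from 2 to 3 for Ab_IR against L_IR and from 3 to 4 for L_IR against Ctrl, and the other 4 counts did not move. Quantile normalization also gave 2 for Ab_IR against L_IR. For Ab_IR against Ctrl signs turned. Quantile normalization gave values below 0 for all 4 genes, with none called. They were -0.18 for Hba-a1, -0.14 for Hba-a2, -0.35 for Hbb-bs and -0.41 for Hbb-bt. Hba-a2 had 0.00564 with median ratio scaling. With the Nppa term and with Ctrl replicate 1 alone, Hba-a2 had 0.0893, Hbb-bs 0.19, Hba-a1 0.33 and Hbb-bt -0.23. The adjusted p by limma with the Nppa term was 0.0361 for Hbb-bs, 0.000326 for Hba-a1 and 0.00767 for Hbb-bt. The fit with 1 control library takes its spread from the 3 others. Leaving out single libraries gave -0.0118 to 0.16 for Hba-a1, -0.0624 to 0.0277 for Hba-a2 and -0.19 to 0.0242 for Hbb-bs. The alpha to beta ratio across the groups had an exact permutation p of 0.00201 to 0.0168 without single libraries, and 4.87e-03 from Hba-a1 over Hbb-bs and 5.84e-04 from Hba-a2 over Hbb-bt. With Hba-a2 over Hbb-bt the log2 difference of the ratio was -0.11 for IR against Ctrl and 0.18 for L_IR against IR, and without single libraries the latter ranged from -0.0314 to 0.0206. The cause of these shifts was not tested. Same-numbered libraries correlated at -0.27 to 0.21 over 18 pairs, so the numbers do not pair them. The replicate block changed none of the 6 counts and gave an exact permutation p of 0.0243 for the ratio. The ratio of Ahsp to alpha globin was not run. Depth is unknown, so what it limits could not be computed.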
